A study of Mus musculus with 50 samples.

Results

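The interleukin-1 (IL-1) family was followed through 10 of its genes in mouse colon, 5 that encode secreted ligands or antagonists and 5 that encode receptor chains. The members were taken by gene symbol, and all 10 were found once among the 56691 genes of the count table. They were Il1a, Il1b, Il1rn, Il18 and Il33 on the ligand side, and Il1r1, Il1r2, Il1rap, Il1rl1 and Il18r1 on the receptor side. The samples were 50 libraries of poly(A) RNA in 5 groups of 10. The labels number the replicates of a group without naming animals; each is taken here as 1 mouse, and the p-values measure the spread between these samples, which may in part be technical. TNBS mice given vehicle, TNBS mice given A1007 at 10, 30 or 90 mpk (unit as labelled), and sham mice made up the groups. All mice carry the genotype label BALBC and the same batch label, and the tissue is colon, its distal part per the series text. TNBS, trinitrobenzene sulfonic acid, is a hapten that provokes colitis in mice, and the series title calls the compound an AhR agonist, that is, an activator of a ligand-gated transcriptional regulator. The labels used here leave out age, sex, day of sampling, dosing schedule and what sham mice received, and no group was labelled with A1007 and no TNBS.

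IL-1α and IL-1β bind the same receptor, IL-1R1, which signals through MyD88 and IRAK kinases to NF-κB once the accessory chain IL-1RAcP has joined it. The loop carries its own brakes: IL-1Ra, encoded by Il1rn, occupies IL-1R1 without signalling, and IL-1R2 is a decoy that binds IL-1 but lacks a signalling tail. IL-33 is an alarmin held in the nucleus of stromal and barrier cells and signals through ST2 (Il1rl1), and IL-18, made constitutively by gut epithelium, signals through IL-18Rα (Il18r1) paired with a second chain, Il18rap. IL-1β and IL-18 are made as precursors that caspase-1 cuts in inflammasomes, a step that RNA does not show.

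Several members lie side by side. On GRCm39, the build of the count table, Il1r2, Il1r1, Il1rl1 and Il18r1 stand in this order on the plus strand of chromosome 1 within 426.8 kb, from 40113239 to 40540014. Il1a and Il1b are neighbours on the minus strand of chromosome 2, within 71.5 kb from 129141530 to 129213059, and Il1rn is on the same chromosome at 24226865 to 24241506. Il1rap is on chromosome 16 (26400454 to 26548867), Il18 on chromosome 9 (50466127 to 50493140) and Il33 on chromosome 19 (29902514 to 29938118). No source used here gives the strand setting of the counting, so reads of overlapping antisense transcripts cannot be set apart.

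The sequences before the start sites of the agonists and of their antagonist are shown because the ratio of their levels is followed below. RefSeq promoter windows on GRCm38.p6, another build than that of the counts, were matched for all 10 members, 17 windows in all. Il1a (chr2:129309973-129310222, minus strand) and Il1b (chr2:129371140-129371389, minus strand) each have 1 annotated window, and for Il1rn the last of its 3 is shown (chr2:24345121-24345370, plus strand). Each is the 250 bases before the start site, 5′ to 3′ on the gene's strand, with capitals on TATAAA (gene strand only), on the C/EBP pattern TTNNGNAA and on the NF-κB pattern (GGG, any 5 bases, CC), the last pair searched on both strands.
Il1a: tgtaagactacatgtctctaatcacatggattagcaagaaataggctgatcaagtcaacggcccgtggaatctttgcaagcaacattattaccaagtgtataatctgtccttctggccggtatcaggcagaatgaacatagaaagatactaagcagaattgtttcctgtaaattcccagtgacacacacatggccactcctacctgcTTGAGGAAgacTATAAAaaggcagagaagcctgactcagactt
Il1b: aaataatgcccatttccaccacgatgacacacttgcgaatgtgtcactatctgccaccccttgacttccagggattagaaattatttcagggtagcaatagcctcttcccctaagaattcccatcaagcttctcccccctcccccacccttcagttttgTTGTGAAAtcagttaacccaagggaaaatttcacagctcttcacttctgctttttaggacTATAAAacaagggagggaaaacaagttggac
Il1rn: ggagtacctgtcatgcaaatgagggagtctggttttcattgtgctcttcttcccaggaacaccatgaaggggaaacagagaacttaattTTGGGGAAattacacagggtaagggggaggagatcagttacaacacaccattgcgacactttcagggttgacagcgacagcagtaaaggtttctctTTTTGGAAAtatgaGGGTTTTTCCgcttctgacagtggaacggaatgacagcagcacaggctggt
A TATAAA stands 32 bases before the start of Il1a and 31 bases before that of Il1b, and none is in the Il1rn window. C/EBP matches begin 43 bases before the start of Il1a, 91 bases before that of Il1b, and 161, 65 and 64 bases before that of Il1rn, the last pair overlapping. The NF-κB pattern occurs once in the Il1rn window, 51 bases before the start, and in 5 of the 17 windows of the members, those of 4 genes (Il1rn, Il1r1, Il1rap and Il18r1). The Il1rn windows not shown hold fewer matches. The first has 1 of the NF-κB pattern and 0 of the C/EBP pattern, and the second has 0 and 1. Across all 32851 promoter windows of the table, 7.6% hold TATAAA, 36.8% the C/EBP pattern and 45.8% the NF-κB pattern. The core GCGTG of AhR sites is in 28.2% of all windows, in none of the 3 shown, and in 5 of the 17 windows of the members, those of 5 genes (another window of Il1rn, and Il1r1, Il1r2, Il1rap and Il1rl1).

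Library totals ran from 14373337 to 20446967 counts over the 50 mice. The colonic epithelium list, from Epcam to Slc26a3, summed to 3740 to 5310 FPKM in vehicle mice and 4407 to 5434 FPKM in sham mice, and none of its 10 genes was at 0. FPKM is the deposited level per length of exon and library total, so it alone is used to compare genes. Vehicle replicate 6 had the most pancreatic acinar RNA, with 41090 FPKM over 8 acinar genes against a vehicle median of 2.02. A1007 10 mpk replicate 6 and A1007 30 mpk replicate 1 had 0.05 and 0.1 FPKM of Xist, against at least 7.86 in the other 48 mice. Every call for vehicle against sham and for 30 mpk against vehicle stayed without any of these libraries. In bulk tissue, fewer cells of a type and less RNA per cell cannot be told apart.

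TNBS vehicle mice had more RNA of both IL-1 agonists than sham mice. Il1a, which encodes the agonist stored in cells and released by damage, ran from 0.32 to 36.58 FPKM in 10 vehicle mice (median 1.45) and from 0.03 to 0.23 FPKM in 10 sham mice (median 0.14). Il1b, the agonist made on demand by myeloid cells, ran from 2.51 to 201.1 FPKM (median 12.91) in vehicle mice and from 0.6 to 2 FPKM (median 1.11) in sham mice. For both genes the lowest vehicle mouse lay above the highest sham mouse. For Il1a this rests on few reads, with 11 counts in the lowest vehicle mouse and 1 to 9 in sham mice. Of the vehicle mice 3, replicates 5, 8 and 9, held 89.5% of the group's Il1a and 86.8% of its Il1b. Replicate 5 had 36.58 FPKM of Il1a and 189.6 FPKM of Il1b, replicate 8 had 20.17 and 201.1 FPKM, and replicate 9 had 10.93 and 79.6 FPKM. The log2 fold change was 5.70 for Il1a (SE 1.00, 95% interval 3.60 to 7.80, edgeR adjusted p = 0.000302) and 5.59 for Il1b (SE 0.90, interval 3.71 to 7.48, edgeR adjusted p = 0.000142). Without vehicle replicate 5, the Il1a value was 4.94, and without replicate 8 the Il1b value was 5.10. The smallest rises under alternative settings were 1.78 for Il1a and 3.25 for Il1b, both still called.

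The antagonist moved less. Il1rn ran from 6.83 to 35.07 FPKM in vehicle mice (median 13.5) and from 7.03 to 10.01 FPKM in sham mice (median 7.73). Of 10 vehicle mice, 8 lay above the highest sham mouse and 1, replicate 1, lay below the lowest. Its log2 fold change was 1.14 (SE 0.24, interval 0.64 to 1.64, edgeR adjusted p = 0.00132), with the highest levels in vehicle replicates 5, 9 and 8, the 3 mice with the most Il1b.

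The other ligands, Il33 and Il18, also rose. Il33 had 2.95 to 56.92 FPKM in vehicle mice (median 10.93) and 2.67 to 5.26 FPKM in sham mice (median 3.94), a log2 fold change of 2.03 (SE 0.43, edgeR adjusted p = 0.00158). Vehicle replicates 1 and 10, at 3.89 and 2.95 FPKM, lay within the sham range, and the other 8 lay above it. Without vehicle replicate 5, the Il33 value was 1.58. Il18 had 29.53 to 92 FPKM in vehicle mice (median 66.85) and 32.87 to 60.53 FPKM in sham mice (median 40.59), a rise of 0.62 on the log2 scale (SE 0.17, edgeR adjusted p = 0.00767), with 7 of 10 vehicle mice above the highest sham mouse. Vehicle replicate 5, which had the most Il33, Il1a and Il1rn of its group, had the least Il18.

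**Figure D1:**
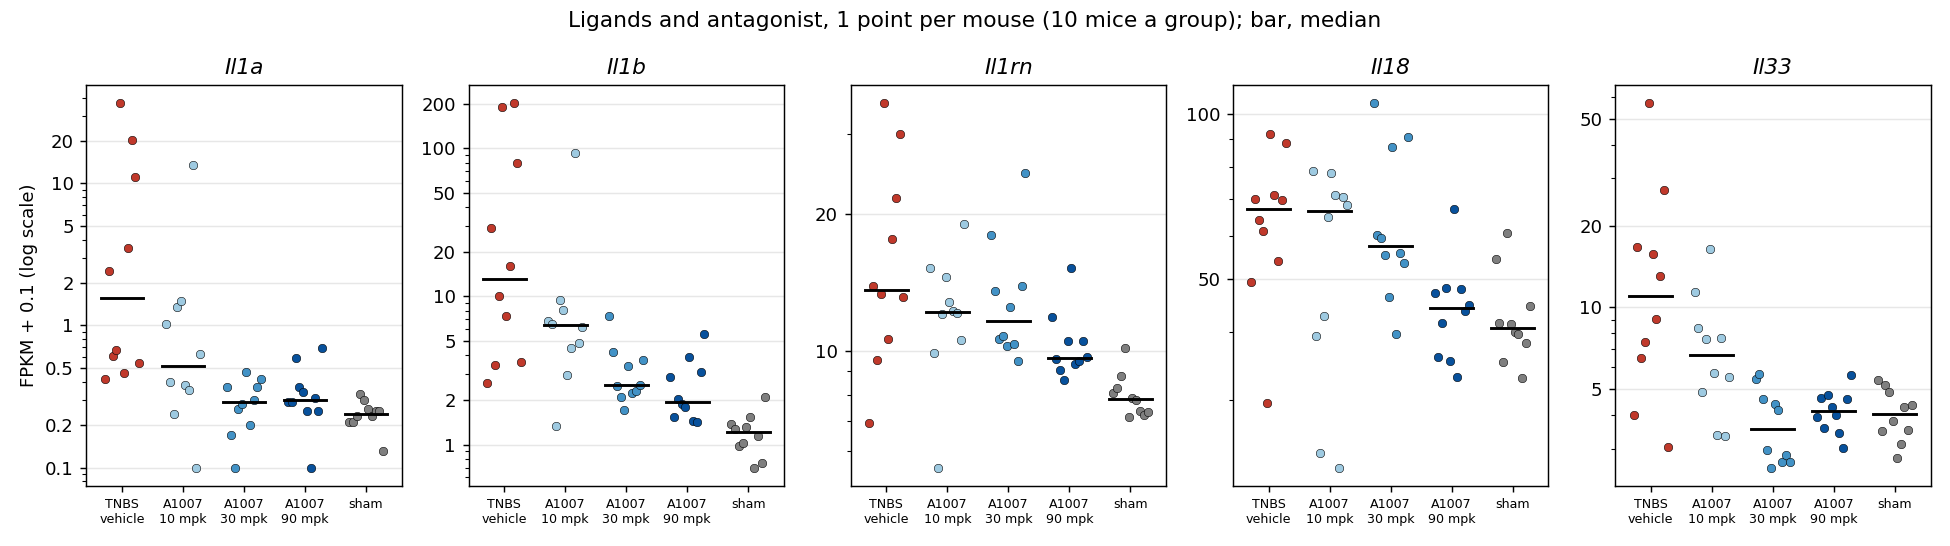
FPKM + 0.1 on a log axis for the 5 ligand genes in TNBS vehicle, A1007 10, 30 and 90 mpk and sham mice, 1 point per mouse (10 a group) with the group median as a bar. All vehicle mice lie above all sham mice for Il1b and, at 1 to 9 counts in sham mice, for Il1a. At 10 mpk replicate 8 stands alone at 13.37 FPKM of Il1a and 93.03 FPKM of Il1b.

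Among the receptor chains the decoy changed most. Il1r2 ran from 0.65 to 75.37 FPKM in vehicle mice (median 5.41) and from 0.21 to 0.65 FPKM in sham mice (median 0.455). The highest vehicle mice were replicate 9 at 75.37 FPKM and replicate 5 at 43.45 FPKM, whereas replicate 8, the mouse with the most Il1b, had 8.76 FPKM. The log2 fold change was 5.21 (SE 0.93, interval 3.25 to 7.16, edgeR adjusted p = 0.000364), and 4.23 without vehicle replicate 9. The smallest rise of Il1r2 under alternative settings was 2.23. Il1r1, the signalling receptor, ran from 7.01 to 22.5 FPKM in vehicle mice and from 5.32 to 6.91 FPKM in sham mice. The groups did not overlap for Il1r1, and its log2 fold change of 0.91 was a 1.88-fold difference (SE 0.16, edgeR adjusted p = 3e-04). Il1rl1, the IL-33 receptor, had 1.14 to 12.76 FPKM in vehicle mice and 0.53 to 1.16 FPKM in sham mice, with 9 of 10 vehicle mice above the highest sham mouse and a log2 fold change of 2.91 (SE 0.41, edgeR adjusted p = 3.2e-05).

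Il1rap and Il18r1 were not called. Il1rap, the chain shared by IL-1R1 and ST2, averaged 2.02 ± 0.809 FPKM in vehicle mice and 1.61 ± 0.164 FPKM in sham mice (SD, n = 10 each), a log2 fold change of 0.33 (interval -0.02 to 0.69, edgeR adjusted p = 0.134). Of 10 vehicle mice, 3 lay above the highest sham mouse and 2 below the lowest, and replicate 5 was highest at 3.81 FPKM. Il18r1 averaged 0.888 ± 0.218 FPKM in vehicle mice and 0.906 ± 0.219 FPKM in sham mice (SD, n = 10 each), with a log2 fold change of -0.01 (interval -0.37 to 0.35, edgeR adjusted p = 0.97). Its partner chain Il18rap, which is no member, rose by 2.34 in the same comparison (edgeR adjusted p = 0.000171), at 0.3 to 3.01 FPKM in vehicle mice and 0.14 to 0.3 FPKM in sham mice.

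In all, 8 of the 10 members were called higher in vehicle than in sham mice and 0 lower, where 31.7% of the 17928 genes tested were called, 18.4% as higher and 13.3% as lower. Of the genes called, 58% were higher, or 40.2% with quantile normalization, under which the same 8 members were called higher. The median log2 fold change was 1.58 over the members and 0.02 over all genes tested. The order of levels per length also differed. In vehicle mice the medians ran Il18, Il1rn, Il1b, Il33, Il1r1, Il1r2, Il1rl1, Il1rap, Il1a and Il18r1, and the range of each gene overlapped that of the next. In sham mice the order was Il18, Il1rn, Il1r1, Il33, Il1rap, Il1b, Il18r1, Il1rl1, Il1r2 and Il1a, the first 4 of them with ranges apart from the next gene's and the rest overlapping.

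**Figure D2:**
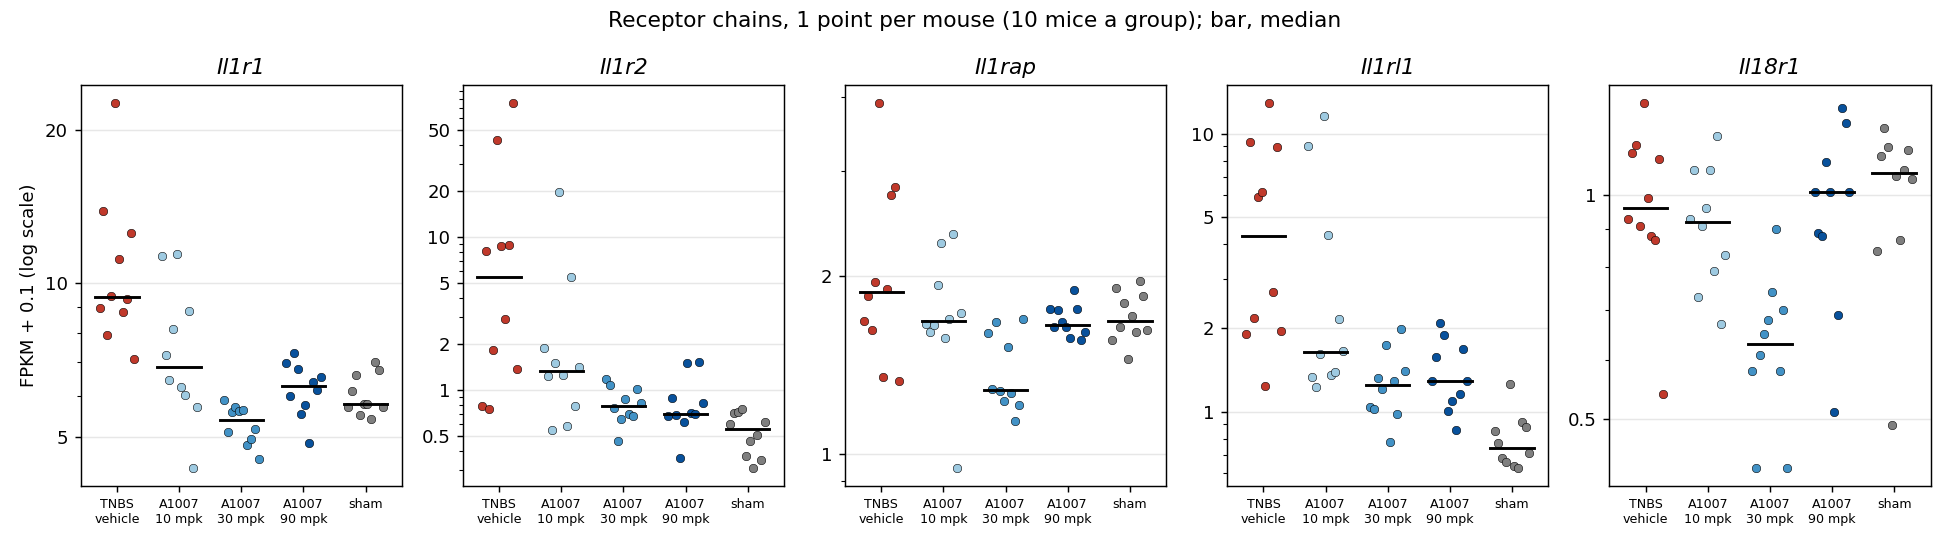
FPKM + 0.1 on a log axis for the 5 receptor genes in TNBS vehicle, A1007 10, 30 and 90 mpk and sham mice, 1 point per mouse (10 a group) with the group median as a bar. Il1r2 and Il1rl1 spread widely in vehicle and 10 mpk mice, and Il18r1 is lowest at 30 mpk, where its median is 0.53 FPKM.

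A1007 was set against vehicle within the 40 TNBS mice. At 30 mpk, 8 members were lower than in vehicle and 0 higher, where 31.4% of all genes were called, 18.1% as lower and 13.3% as higher. At 90 mpk the count was also 8 lower and 0 higher, against 18.6% of all genes, 11.7% as lower and 6.91% as higher. Il1a, Il1b, Il33, Il1r1, Il1r2 and Il1rl1 were called lower at both doses, Il1rap and Il18r1 at 30 mpk, and Il1rn and Il18 at 90 mpk. The median log2 fold change of the members was -1.58 at 30 mpk and -1.46 at 90 mpk, and -0.02 over all genes at either dose. Higher genes made up 42.3% of the calls at 30 mpk and 37.2% at 90 mpk, or 57.2% and 57% with quantile normalization, under which 8 and 6 members were lower and 0 higher. The 3 dose comparisons share the same vehicle mice, so their values are not independent of each other.

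Il1a, Il1b and the decoy Il1r2 fell furthest. Il1b had 1.61 to 7.22 FPKM at 30 mpk (median 2.42) and 1.31 to 5.48 FPKM at 90 mpk (median 1.85), against 2.51 to 201.1 FPKM in vehicle mice (median 12.91). None of the mice at 30 or 90 mpk reached the vehicle median, and 6 of 10 at either dose lay below the lowest vehicle mouse. The log2 fold change was -4.09 at 30 mpk (SE 0.78, interval -5.68 to -2.51, edgeR adjusted p = 0.000213) and -4.49 at 90 mpk (SE 0.80, interval -6.11 to -2.87, edgeR adjusted p = 0.000153). Il1a reached at most 0.37 FPKM at 30 mpk and 0.59 FPKM at 90 mpk, against a vehicle median of 1.45 FPKM, and 8 of 10 mice at each dose lay below the lowest vehicle mouse. That mouse had 11 counts, against 0 to 13 at 30 mpk and 0 to 17 at 90 mpk. The log2 fold change of Il1a was -5.21 at 30 mpk (SE 0.97, edgeR adjusted p = 0.000163) and -4.95 at 90 mpk (SE 0.95, edgeR adjusted p = 0.000346). These sizes rest on the high vehicle mice: without vehicle replicate 5 the Il1a values were -4.45 and -4.19, and without replicate 8 the Il1b values were -3.61 and -4.00. They also depend on the method. The smallest declines under alternative settings were -1.72 and -1.66 for Il1a and -2.3 and -2.61 for Il1b at 30 and 90 mpk, still called.

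Il33 followed the agonists with a smaller change. It had 2.45 to 5.57 FPKM at 30 mpk (median 3.46) and 2.92 to 5.51 FPKM at 90 mpk (median 4.03), against a vehicle median of 10.93 FPKM, with log2 fold changes of -2.10 (SE 0.37, edgeR adjusted p = 7.28e-05) and -2.02 (SE 0.36, edgeR adjusted p = 0.000166). Il1rn and Il18 stayed closer to vehicle. Il1rn had 9.4 to 24.62 FPKM at 30 mpk and 8.53 to 15.15 FPKM at 90 mpk, against 6.83 to 35.07 FPKM in vehicle mice. Its log2 fold change was -0.35 at 30 mpk (interval -0.81 to 0.10, edgeR adjusted p = 0.234) and -0.78 at 90 mpk (interval -1.24 to -0.33, edgeR adjusted p = 0.0127). Il18 averaged 65.2 ± 21.3 FPKM at 30 mpk and 44.4 ± 9.69 FPKM at 90 mpk, against 64.9 ± 18.3 FPKM in vehicle mice (SD, n = 10 each). The Il18 log2 fold change was 0.02 at 30 mpk (interval -0.41 to 0.44, edgeR adjusted p = 0.959) and -0.60 at 90 mpk (interval -1.03 to -0.17, edgeR adjusted p = 0.0431). The call of Il18 at 90 mpk was lost without any of 14 of the 20 mice compared, and with limma on log2(FPKM + 0.5) its adjusted p was 0.0937, and that of Il1rn 0.061.

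The decoy receptor and ST2 fell with the agonists. Il1r2 had 0.36 to 1.07 FPKM at 30 mpk (median 0.69) and 0.26 to 1.43 FPKM at 90 mpk (median 0.6), against a vehicle median of 5.41 FPKM, with log2 fold changes of -4.47 (SE 0.80, edgeR adjusted p = 0.000106) and -4.46 (SE 0.80, edgeR adjusted p = 0.000162). Without vehicle replicate 9 these were -3.49 and -3.48, and the smallest declines under alternative settings were -1.82 and -1.97. Il1rl1 had 0.68 to 1.89 FPKM at 30 mpk and 0.76 to 1.99 FPKM at 90 mpk, against 1.14 to 12.76 FPKM in vehicle mice, and changed by -2.13 and -2.06 (edgeR adjusted p = 0.000408 and 0.000879). Il1r1 had 4.43 to 5.81 FPKM at 30 mpk, so that all 10 mice lay below the lowest vehicle mouse at 7.01 FPKM, and 4.76 to 7.21 FPKM at 90 mpk, where 9 of 10 did. Its log2 fold changes were -1.07 and -0.89 (SE 0.16 each, edgeR adjusted p = 9.26e-06 and 0.000113), the smallest adjusted p of the members at both doses.

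Il1rap and Il18r1, which had not passed the test in vehicle against sham, were lower at 30 mpk. Il1rap averaged 1.29 ± 0.207 FPKM at 30 mpk and 1.59 ± 0.103 FPKM at 90 mpk, against 2.02 ± 0.809 FPKM in vehicle mice (SD, n = 10 each), with log2 fold changes of -0.62 (edgeR adjusted p = 0.00244) and -0.38 (edgeR adjusted p = 0.0727). Il18r1 ran from 0.33 to 0.8 FPKM at 30 mpk (median 0.53) and from 0.41 to 1.21 FPKM at 90 mpk (median 0.91), against 0.44 to 1.23 FPKM in vehicle mice (median 0.86). None of the 30 mpk mice reached the vehicle median of Il18r1, whereas 6 of 10 did at 90 mpk. Its log2 fold change was -0.73 at 30 mpk (SE 0.17, edgeR adjusted p = 0.00147) and -0.07 at 90 mpk (interval -0.41 to 0.26, edgeR adjusted p = 0.809), on 25 to 60 counts a mouse at 30 mpk and 39 to 99 counts in vehicle mice.

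**Figure D3:**
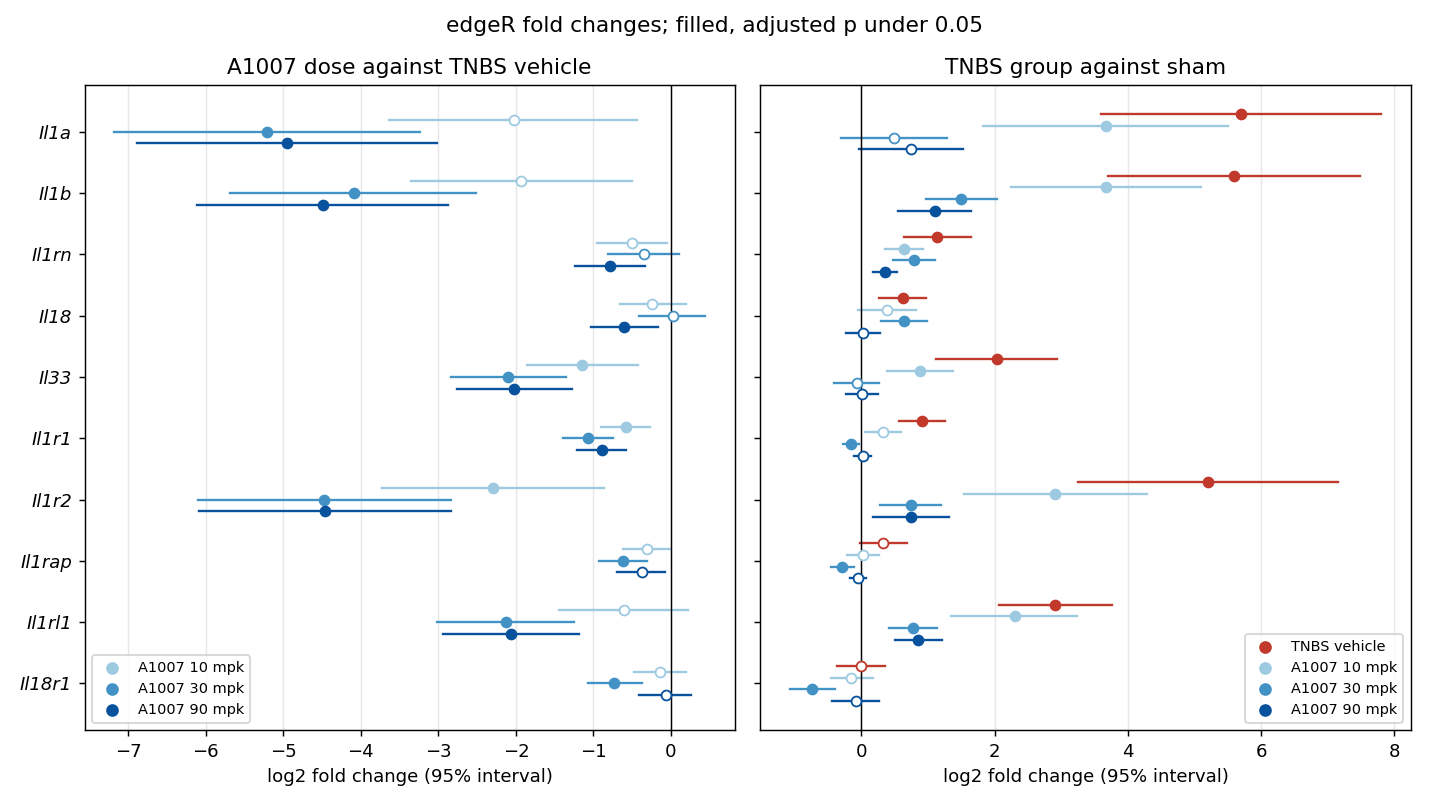
Log2 fold changes with 95% intervals from edgeR for the 10 members (rows), of A1007 10, 30 and 90 mpk against TNBS vehicle (left) and of each TNBS group against sham (right), with filled points for an adjusted p under 0.05. Il1a, Il1b and Il1r2 lie farthest from 0 at 30 and 90 mpk against vehicle, at -5.21 to -4.09, while Il18 lies nearest to 0 at 30 mpk and Il18r1 at 90 mpk.

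At 10 mpk, 3 members were called lower than in vehicle and 0 higher, where 5.79% of all genes were called, 3.06% as lower and 2.73% as higher. They were Il1r1 (log2 fold change -0.58, SE 0.16, edgeR adjusted p = 0.0225), Il1r2 (-2.29, SE 0.71, edgeR adjusted p = 0.0456) and Il33 (-1.15, SE 0.35, edgeR adjusted p = 0.0456). The calls depended on the setting: 1 of the 3, Il1r1, stayed with limma on log2(FPKM + 0.5), 0 stayed in a fit of the 20 mice alone, and leaving out 1 mouse gave 0 to 4 called members, 0 without vehicle replicate 5. Il33 was at -0.70 without that mouse, and Il1r2 at -1.32 without vehicle replicate 9. Il1b ran from 1.24 to 93.03 FPKM at 10 mpk (median 6.28), against a vehicle median of 12.91 FPKM, and Il1a from 0 to 13.37 FPKM (median 0.415), against 1.45 FPKM. The highest values of both belonged to replicate 8, and the next mouse had 9.29 FPKM of Il1b and 1.39 FPKM of Il1a. The log2 fold change of Il1b was -1.93 (edgeR adjusted p = 0.0902) and that of Il1a -2.03 (edgeR adjusted p = 0.111). Without replicate 8 of 10 mpk they were -3.30 (edgeR adjusted p = 0.00368) and -3.75 (edgeR adjusted p = 0.00475). Replicate 8 was not the mouse with the most Il1r2. That was replicate 5 of 10 mpk, at 19.55 FPKM of Il1r2 with 11.46 FPKM of Il1rl1 and 16.31 FPKM of Il33, but 8.03 FPKM of Il1b.

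**Figure D4:**
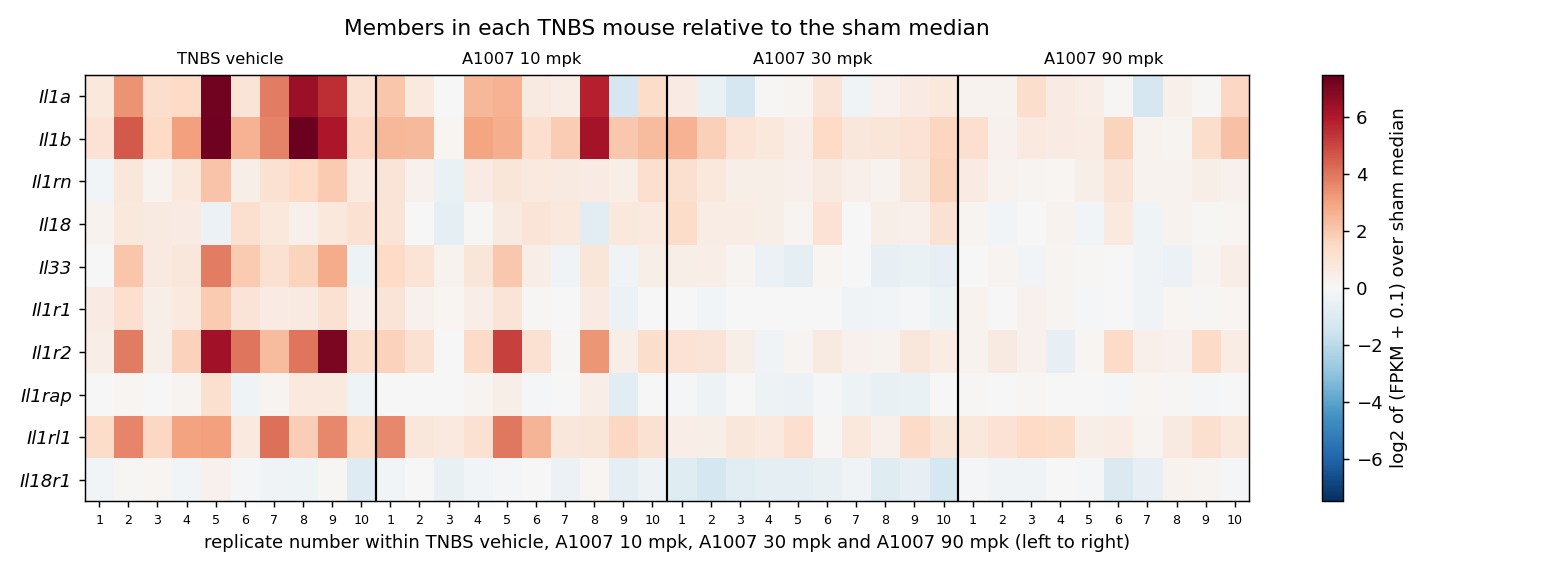
Colour map of log2((FPKM + 0.1) over the sham median + 0.1) for the 10 members (rows) in the 40 TNBS mice (columns, by replicate number within TNBS vehicle, A1007 10, 30 and 90 mpk). Values run from -1.32 to 7.38, with the highest in vehicle replicates 5, 8 and 9, and at 10 mpk the mouse high in Il1a and Il1b (replicate 8) is not the one highest in Il1r2 (replicate 5).

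Between doses no member passed the test. Of 10 members, 0 were called at 30 against 10 mpk, where 1.78% of all genes were called, 0.429% as higher and 1.35% as lower. At 90 against 10 mpk it was 0, with 0.106% of all genes called, 0.0335% as higher and 0.0725% as lower, and at 90 against 30 mpk 0, with 0.351% called, 0.0781% as higher and 0.273% as lower. At 30 against 10 mpk, 8 members had an unadjusted p under 0.05, and DESeq2 called 6 members. At 90 against 10 mpk the unadjusted count was 5 and DESeq2 called 3, and at 90 against 30 mpk it was 2 and DESeq2 called 1. The shares of all genes with an unadjusted p under 0.05 or called by DESeq2 are not given beside them. The edgeR shares above are no background for these counts. The largest differences at 30 against 10 mpk were -3.17 for Il1a (edgeR adjusted p = 0.0637, interval -5.10 to -1.24) and -2.17 each for Il1b and Il1r2 (edgeR adjusted p = 0.103 and 0.115). Single mice of 10 mpk carried much of these: without replicate 8 Il1a was at -1.46 and Il1b at -0.79, and without replicate 5 Il1r2 was at -1.05. At 90 against 30 mpk, Il18r1 was 0.65 higher (interval 0.31 to 1.00, edgeR adjusted p = 0.0772) and Il18 0.62 lower, at -0.62 (interval -1.04 to -0.19, edgeR adjusted p = 0.132). In a fit of the 20 mice of 90 and 30 mpk alone, both were called with Il1rap (edgeR adjusted p = 0.0116 for Il18r1, 0.0154 for Il18 and 0.0495 for Il1rap). The share of all genes called in that fit is not given here.

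Each dose was also set against sham, to see which members stayed away from the sham level. At 10 mpk 6 members were higher and 0 lower, where 36.4% of all genes were called, 21.2% as higher and 15.2% as lower. At 30 mpk 5 were higher and 3 lower, against 59% of all genes, 31.3% as higher and 27.7% as lower. At 90 mpk 4 were higher and 0 lower, a smaller share called than the 45.3% of all genes, 23.7% as higher and 21.6% as lower. Il1b remained above sham at every dose, with log2 fold changes of 3.67, 1.5 and 1.1 at 10, 30 and 90 mpk (edgeR adjusted p = 0.000536, 3.57e-05 and 0.00197), and so did Il1rl1 at 2.30, 0.78 and 0.85 (edgeR adjusted p = 0.000827, 0.000469 and 0.000376). Il1rn was 0.64, 0.79 and 0.36 above sham (edgeR adjusted p = 0.00147, 0.000161 and 0.00199), and Il1r2 was 2.91, 0.74 and 0.75 above it (edgeR adjusted p = 0.00247, 0.00643 and 0.0289). Without replicate 8 of 10 mpk, Il1b at that dose was 2.29 above sham and Il1a 1.96, and without replicate 5 Il1r2 was 1.79 above it. The call of Il1r2 at 90 mpk ended with quantile normalization (adjusted p = 0.108), the rank-sum test (0.0868), mouse weights (0.0856), all 50 mice in 1 fit (0.488) or the replicate block (0.0906), and without any of 4 mice. Il1a and Il33 were called above sham at 10 mpk alone of the doses, at 3.67 and 0.88 (edgeR adjusted p = 0.00381 and 0.00728), and the call of Il1a ended with limma on log2(FPKM + 0.5) (adjusted p = 0.067). Il18 was called above sham at 30 mpk, at 0.64 (edgeR adjusted p = 0.00245), with 0.39 at 10 mpk and 0.03 at 90 mpk.

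The 3 members below sham at 30 mpk were receptor chains. Their count is close to the background share, since 27.7% of all genes were called lower in this comparison. Whether receptor chains stood out from the ligands was not tested. Il18r1 had 0.33 to 0.8 FPKM at 30 mpk and 0.39 to 1.13 FPKM in sham mice, a log2 fold change of -0.74 (SE 0.16, edgeR adjusted p = 0.000485), with every 30 mpk mouse below the sham median. Il1rap differed by -0.29 (SE 0.08, edgeR adjusted p = 0.00591) and Il1r1 by -0.16 (SE 0.06, edgeR adjusted p = 0.0186), which are 0.821 and 0.895 times the sham level. These fits took the spread of the 20 mice compared. With all 50 mice in 1 fit, whose spread includes the vehicle mice, 3 members stayed called at 30 mpk, Il1rn, Il18 and Il18r1, and 0 at 90 mpk.

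The balance of antagonist and agonist was read as a ratio of FPKM in each mouse. A ratio of FPKM depends on the exon lengths used, 5535 bases for Il1rn and 1907 for Il1b, and its level is on that scale. Il1rn over Il1b ranged from 0.108 to 3.7 in vehicle mice (median 1.22) and from 3.61 to 12.8 in sham mice (median 6.95). In 4 of 10 vehicle mice Il1b exceeded Il1rn, and in 0 of 10 sham mice. The mean log2 ratio, with 0.1 FPKM added to each gene, differed by -3 between vehicle and sham mice (permutation test of 100000 resamples, adjusted p = 0.00042 over 21 tests of ratios). At 10, 30 and 90 mpk the median ratio was 2.23, 4.6 and 4.73. Against vehicle, the difference was 1.07 at 10 mpk (permutation adjusted p = 0.215), 2.36 at 30 mpk (adjusted p = 0.00077) and 2.38 at 90 mpk (adjusted p = 0.00142). Without replicate 8 of 10 mpk, that at 10 mpk was 1.49 (permutation adjusted p = 0.0442). Against sham, the ratio was lower at all doses, with differences of -1.94, -0.64 and -0.62 (permutation adjusted p = 0.00042, 0.0193 and 0.0375). With 1 FPKM added, the differences at 30 and 90 mpk against sham no longer passed (permutation adjusted p = 0.165 and 0.14), and leaving out any of 9 of the 20 mice ended the one at 90 mpk.

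Decoy over signalling receptor, Il1r2 over Il1r1, ran the other way. The median ratio was 0.452 in vehicle mice (0.0781 to 6.03) and 0.0759 in sham mice (0.0375 to 0.12), a log2 difference of 2.45 (permutation adjusted p = 0.00147), and it exceeded 1 in 2 vehicle mice, replicates 5 and 9. Median ratios of 0.168, 0.133 and 0.104 were found at 10, 30 and 90 mpk. The differences from vehicle were -1.03 (permutation adjusted p = 0.236), -1.65 (adjusted p = 0.0292) and -1.90 (adjusted p = 0.0176), and without vehicle replicate 9 that at 30 mpk was -1.24 (adjusted p = 0.0501). By a rank-sum test neither passed (adjusted p = 0.0847 and 0.0605). Against sham, the differences were 1.42, 0.81 and 0.55 at 10, 30 and 90 mpk (permutation adjusted p = 0.00287, 0.00348 and 0.086). Il18bp over Il18, the soluble IL-18 binding protein against its ligand, had medians of 0.0295 in vehicle, 0.0384, 0.0375 and 0.0521 at 10, 30 and 90 mpk, and 0.0475 in sham mice, and passed in 0 of 7 comparisons. The difference between vehicle and sham was -0.29 (permutation adjusted p = 0.347), and -0.50 without vehicle replicate 5 (adjusted p = 0.0309). At 90 mpk against vehicle it was 0.56 (permutation adjusted p = 0.132), and 0.77 without the same mouse (adjusted p = 0.00942).

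**Figure D5:**
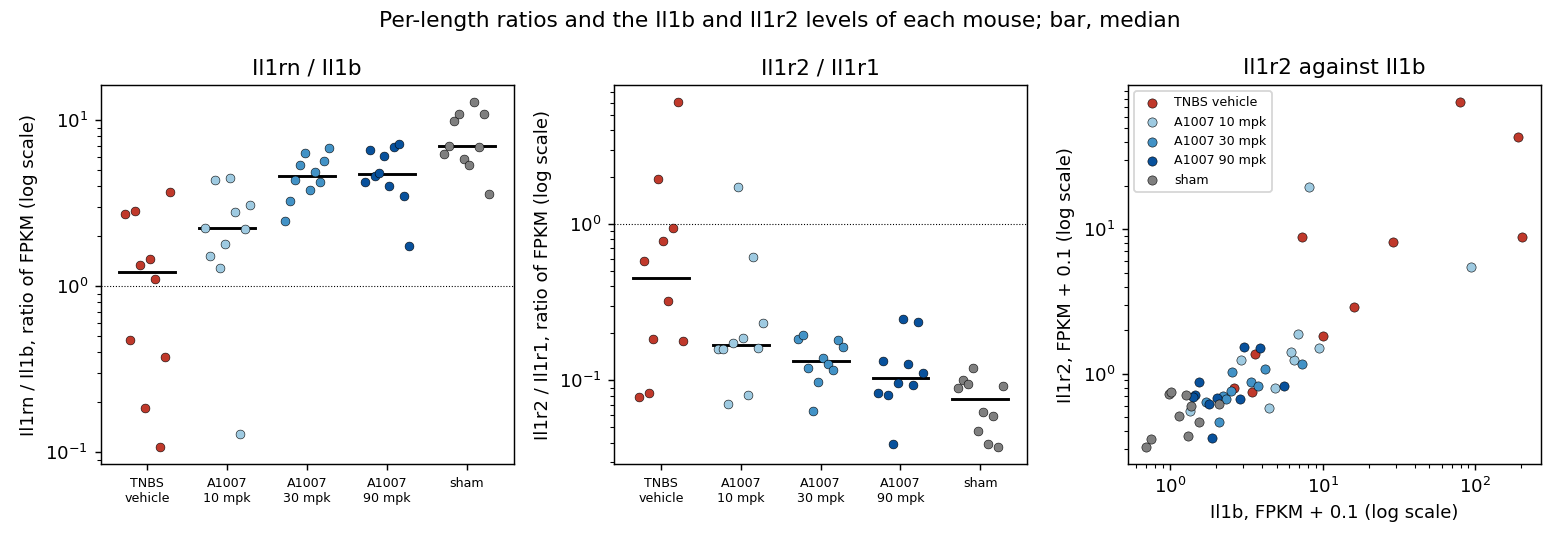
Ratio of FPKM of Il1rn over Il1b (left) and of Il1r2 over Il1r1 (middle) on log axes in TNBS vehicle, A1007 10, 30 and 90 mpk and sham mice, with the median as a bar, and Il1r2 against Il1b as FPKM + 0.1 for all 50 mice (right). The vehicle medians are 1.22 and 0.452, and the sham medians 6.95 and 0.0759, and in the right panel the mouse highest in Il1r2 and the mouse highest in Il1b are different vehicle mice.

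Further genes of the pathway were counted from lists, beside a background of 31.7% of all genes called in vehicle against sham, 31.4% at 30 mpk and 18.6% at 90 mpk against vehicle. Of 11 further ligands, receptors and inhibitors, 5 had enough counts to be tested, and 3 were higher in vehicle than in sham mice. Il36g, an IL-36 agonist of epithelium, was at 0.07 to 21.78 FPKM in vehicle mice and was listed at 0 in all sham mice (edgeR adjusted p = 0.00317). With sham mice at 0, Il36g could only be called higher or not called, so its direction was not open to the test. The count filter was shared by all comparisons and so also took in mice outside this one. Il1rl2, the IL-36 receptor, rose by 1.08 (edgeR adjusted p = 0.000366), and Il18rap rose as given above. The same 3 genes fell at 30 and 90 mpk against vehicle, Il36g by 6.12 and 5.26, Il1rl2 by 0.95 and 0.86, and Il18rap by 2.48 and 2.01 on the log2 scale (edgeR adjusted p from 5.49e-06 to 0.000286). Sigirr, a receptor-like inhibitor of IL-1 signalling, was 0.29 and 0.25 higher than in vehicle (edgeR adjusted p = 0.00476 and 0.0175).

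The signalling genes had a median log2 fold change of 0.04 in vehicle against sham. Of 13 of them 4 rose and 1 fell, close to the background share, with Irak3, an inhibitory IRAK of myeloid cells, at 0.99, Myd88, the adaptor, at 0.45 and Irak4, the kinase it recruits, at 0.29 (edgeR adjusted p = 0.00765, 0.00675 and 0.000865). At 30 mpk against vehicle 0 rose and 7 fell, and at 90 mpk 0 rose and 4 fell, Irak3 by 1.12 and 0.89 (edgeR adjusted p = 0.000197 and 0.00285). Among 8 genes of processing and release, 3 rose and 1 fell in vehicle mice. Nlrp3, an inflammasome sensor, rose by 4.49 (edgeR adjusted p = 0.000302) and Pycard, its adaptor, by 0.44 (edgeR adjusted p = 0.0188), while Casp1, which encodes the protease that cuts both precursors, fell by 0.37 (edgeR adjusted p = 0.0176). Nlrp3 was lower by 4.08 at 30 mpk and 3.55 at 90 mpk than in vehicle, at -4.08 and -3.55 (edgeR adjusted p = 0.000206 and 0.000909).

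Genes that IL-1 induces in many cells were also read, 14 of them, 12 with enough counts. In vehicle mice 8 rose and 0 fell, Cxcl5, Cxcl1 and Il6 by 8.50, 5.90 and 8.37 (edgeR adjusted p = 2.21e-05, 0.000235 and 0.000197). At 30 mpk 8 fell and 1 rose against vehicle, and at 90 mpk 9 fell and 0 rose, Il6, a cytokine of the acute phase, by 5.29 and 6.30 (edgeR adjusted p = 5.66e-05 and 3.94e-05). Of 8 genes that IL-18 or IL-33 induce, 4 had enough counts, and Ifng, Il5, Il13 and Il9 did not. Ccl24, an eosinophil attractant, and Areg, an EGF receptor ligand, rose in vehicle mice by 3.23 and 0.91 (edgeR adjusted p = 0.000118 and 0.046). Both were lower at 90 mpk than in vehicle, at -1.97 and -1.72 (edgeR adjusted p = 0.00285 and 0.00485), while at 30 mpk Ccl24 was at -1.48 (edgeR adjusted p = 0.0134) and Areg at 0.76 (edgeR adjusted p = 0.159).

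Markers of neutrophils, macrophages and fibroblasts rose in vehicle mice and fell at the higher doses. Of all genes, 18.4% were called higher and 13.3% lower in vehicle than in sham mice. Against vehicle, 18.1% were called lower and 13.3% higher at 30 mpk, and 11.7% lower and 6.91% higher at 90 mpk. All 10 neutrophil markers were higher in vehicle than in sham mice, their sum at 46.94 to 7458 FPKM in vehicle mice (median 452) and 24.65 to 62.03 FPKM in sham mice (median 35.91). At 30 and 90 mpk 9 and 10 of them fell against vehicle, with sums of 48.24 to 99.79 and 36.12 to 82.21 FPKM. Of the monocyte and macrophage markers all 10 rose in vehicle mice, summing to 349.3 to 876.2 FPKM against 196.4 to 315.1 FPKM in sham mice, and 7 fell at 30 mpk and 9 at 90 mpk. Fibroblast markers rose in 7 of 8 cases in vehicle mice, with sums of 382.4 to 865.8 FPKM in vehicle and 159.6 to 262.5 FPKM in sham mice, and at 30 and 90 mpk against vehicle 5 fell and 1 rose. Endothelial markers rose in 4 of 7 cases in vehicle mice and 2 fell at each of these doses. Mast cell markers split into 9 that rose and 1 that fell in vehicle mice, with 1 lower at 30 mpk and 1 higher and 1 lower at 90 mpk. Of 6 smooth muscle markers 0 were called in vehicle against sham, and 2 rose at 30 mpk and 1 at 90 mpk. Of 9 T and innate lymphoid markers 0 were called in these comparisons, and of 10 epithelial markers 2 fell in vehicle mice and 3 rose at 30 mpk. Of 8 squamous epithelium markers 3 had enough counts, and 2 rose in vehicle mice, with 1 lower at 30 mpk and 2 at 90 mpk. All 8 acinar markers, of which vehicle replicate 6 had the most RNA, were called higher in vehicle mice, 0 fell at 30 mpk and 7 fell at 90 mpk. No neutrophil, macrophage or fibroblast marker was at 0 in all mice of a group. The part of cell numbers in the changes of the members was not tested.

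Within the 40 TNBS mice, the members tracked different genes. These Spearman correlations of FPKM are descriptions over mice that share groups and, in part, depth. Il1b was most like S100a9 (0.913), Cxcl5 (0.913) and Csf3r (0.896), and Il1r2 most like S100a8 (0.866), Cxcl5 (0.86) and Csf3r (0.845), of which S100a8, S100a9 and Csf3r are on the neutrophil list. Il1a was most like Slc11a1 (0.854), Csf2rb (0.836) and Dab2 (0.835), and Il1rn like Anxa3 (0.82), Gpr137b-ps (0.805) and Slc16a3 (0.803). The closest genes of Il33 included F13a1 (0.917) and Slit3 (0.908). For Il1r1 they were Pdgfra (0.877), a fibroblast marker here, St3gal1 (0.877) and Slc39a14 (0.872), and for Il1rl1 Glipr2 (0.847), Plau (0.842) and Lama1 (0.832). Lower values were found for Il1rap with Glis3 (0.79), Itgb1 (0.771) and Chst11 (0.767), Il18 with Srd5a2 (0.765), Carhsp1 (0.761) and Slc45a3 (0.75), and Il18r1 with Rasa3 (0.798), Pitpnc1 (0.764) and Lrrc8c (0.704).

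The members also differed in how far they moved together. Over the 40 TNBS mice Il1b correlated with Il1r2 at 0.83, with Il1a at 0.74, with Il33 at 0.73 and with Il1rn at 0.72, but with Il18 at 0.36 and Il18r1 at 0.22. These values pool groups whose levels differ. Within the 10 vehicle mice the values, in the same order, were 0.87, 0.93, 0.78, 0.94, -0.24 and 0.09. Within the 10 sham mice they were 0.21, -0.23, 0.1, -0.14, 0.48 and -0.45. Vehicle replicate 5 was the highest of its group for 6 of the 10 members, and replicates 6, 7, 8 and 9 for 1 each. Replicate 7 led for Il1rl1 and had the highest mast cell sum of its group, 884.4 FPKM against a vehicle median of 82.98, and replicate 6 led for Il18. Across the 40 mice Il1rl1 correlated with the mast cell sum at 0.24 and with the neutrophil sum at 0.54.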

How the data were processed

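Poly(A) RNA of 50 colon samples was sequenced in 1 batch, per the labels. The deposited tables hold raw counts and FPKM, both made by the authors. The submitters' processing notes name HISAT2 2.2.1, HTSeq 0.6.1, cutadapt 1.9.1 and DESeq2, and the build GRCm39. Strand setting and the handling of multi-mapping reads were not given in the sources used here. Of values with at least 500 counts, 99.997% of deposited FPKM values fell within 1% of the count per exon length and library total.

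Counts were tested with edgeR 4.0.16 (R 4.3.3; quasi-likelihood, TMM factors, filterByExpr with a count minimum of 10, robust), with Benjamini-Hochberg adjustment over 17928 genes and a threshold of 0.05. Comparisons with sham used the 20 mice compared, and the others the 40 TNBS mice. The fits were tested on simulated data. Ratios of FPKM (pseudocount 0.1) had 2-sided permutation tests with 100000 resamples. DESeq2 1.42.0, limma 3.58.1 on log2(FPKM), other scalings, filters, fits and left-out mice were alternatives. Further genes of a list were named if called, up to 3 with the smallest p. Some others were named after their values were seen. Genes like a member were the 3 with the highest Spearman correlation. Some genes that this rule names are not reported here. Members and lists were chosen with earlier results of these data known. Counts limit Il1a, Il1r2 and Il18r1 most.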

Additional observations from a re-analysis of the deposited data

Results flagged for a closer look

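In 10 of the 50 sets of 10 mice (10 members in 5 groups), the most extreme mouse stood apart by Dixon's test at 95%. Chance gives about 1 in 20 for normally distributed values. FPKM without a log, skewed upward in several of these sets, cannot be judged against that rate. At 10 mpk, replicate 8 had 13.37 FPKM of Il1a (next mouse 1.39) and 93.03 FPKM of Il1b (next 9.29), and replicate 5 had 19.55 FPKM of Il1r2 (next 5.38). At 30 mpk, replicate 1, 1 of the 2 mice low in Xist, had 7.22 FPKM of Il1b (next 4.1). At 90 mpk, replicate 6 was highest for both Il1rn, at 15.15 FPKM (next 11.77), and Il18, at 67.11 FPKM (next 47.96). In vehicle mice, replicate 5 had 22.5 FPKM of Il1r1 (next 13.8) and 56.92 FPKM of Il33 (next 27.14). Among sham mice, replicate 5 had the highest Il1rl1, at 1.16 FPKM (next 0.82), and the lowest Il18r1, at 0.39 FPKM (next 0.74).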

How the results depend on the processing

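The counts of called members for vehicle against sham (8) and for 30 mpk against vehicle (8) were the same under every alternative run. Over all members and comparisons, 3140 of 3340 alternative values kept direction and side of the threshold. Sign changes with a value that rounded to 0 were counted as kept, at most 14 with those of the ratios. At 10 mpk against vehicle the 3 calls became 1 with quantile normalization, no filter, limma on FPKM with each pseudocount, the replicate block or without the mice low in Xist, and 0 by the rank-sum test, mouse weights or the 2 groups alone, but 4, with Il1b added, by DESeq2 or with all 50 mice in 1 fit. With all 50 mice in 1 fit, 3 members were called at 30 mpk and 0 at 90 mpk against sham. The 0 calls between doses became, for 30 against 10 mpk, 6 (DESeq2), 4 (mouse weights), 5 (all 50 mice), 1 (2 groups alone) and 1 (without the mice low in Xist). For 90 against 10 mpk DESeq2 called 3. For 90 against 30 mpk the count was 1 with DESeq2, all 50 mice or the replicate block, and 3 with the rank-sum test, mouse weights or the 2 groups alone. The cause of these changes was not tested. Calls over all genes changed with the setting too, as given below. For 30 against 10 mpk and 90 against 30 mpk they rose most with mouse weights. The edgeR shares of the main fits are therefore no background for the member counts under these settings. The labels tie same-numbered mice by number alone. Their deviations did not correlate over 0.1 in every pair in any comparison, a check that cannot tell whether some of the pairs shared a block. The median was highest for vehicle and 10 mpk (range -0.28 to 0.37, median 0.23, 6 of 10 pairs over 0.1, 3 of 10 best with their own number). The replicate block gave 3 called members in place of 4 at 90 mpk against sham, the counts given above, and the same counts in the other comparisons.

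Values that changed sign were small and not called in either direction. By mouse weights, Il18r1 was 0.07 at 10 mpk and 0.03 at 90 mpk against vehicle and -0.04 at 90 against 10 mpk. Without the mice low in Xist, Il18 at 30 mpk against vehicle was -0.08. Il1rap at 10 mpk against sham was -0.08 with quantile normalization and -0.01 with limma on log2(FPKM + 0.1), and Il33 at 90 mpk against sham was -0.07 with quantile normalization. Il1r2 at 90 against 30 mpk was -0.13 with quantile normalization, -0.02 with limma on log2(FPKM + 0.1), -0.19 by mouse weights and -0.17 with the replicate block. Leaving out 1 mouse gave ranges across 0 for Il18r1 in vehicle against sham (-0.09 to 0.07) and, against vehicle, for Il18 at 30 mpk (-0.08 to 0.11) and Il18r1 at 90 mpk (-0.16 to 0.01). Against sham it did so for Il1rap at 10 mpk (-0.04 to 0.1) and, at 90 mpk, for Il1r1 (-0.02 to 0.05), Il18 (-0.06 to 0.09) and Il33 (-0.04 to 0.06). At 90 against 30 mpk it did so for Il1r2 (-0.16 to 0.12) and Il1rl1 (-0.02 to 0.17), and for the log2 ratio of Il18bp over Il18 against vehicle at 10 mpk (-0.05 to 0.27) and 30 mpk (-0.24 to 0.08).

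Over all genes, the 1038 calls at 10 mpk against vehicle became 600 with quantile normalization, 545 with no filter, 582 to 599 with limma on FPKM, 669 by mouse weights, 1749 with all 50 mice, 612 without the mice low in Xist, 8 in the 2 groups alone and 0 by the rank-sum test. The 8122 calls at 90 mpk against sham became 4399 with all 50 mice. For 30 against 10 mpk, 319 became 138 (no filter) to 4001 (mouse weights), for 90 against 10 mpk 19 became 9 (limma) to 184 (DESeq2), and for 90 against 30 mpk 63 became up to 4380 (mouse weights). Leaving out 1 mouse gave 512 (10 mpk replicate 7) to 2453 (10 mpk replicate 5) for 10 mpk against vehicle, 102 (30 mpk replicate 8) to 1398 (10 mpk replicate 9) for 30 against 10 mpk, 9 to 30 for 90 against 10 mpk (10 mpk replicates 1 and 9) and 31 to 90 for 90 against 30 mpk (31 without 30 mpk replicate 6 or 90 mpk replicate 3, 90 without 30 mpk replicate 1). The share of calls that were higher was 42.8% with quantile normalization against 58.2% for 10 mpk against sham, and 64.2% against 47.2% for 10 mpk against vehicle. Low counts limit Il1a, at 0 to 17 counts a mouse at 90 mpk and 1 to 9 in sham mice, and Il1r2, at 10 to 54 at 90 mpk.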
